A study of Rosa hybrid cultivar with 12 samples.

Results

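Rose buds held on 100 mM sucrose without auxin were compared with rose buds held on 10 mM sucrose with 1 µM NAA. These are 2 of the 4 groups of the study and hold 6 of its 12 RNA-seq libraries, 3 in each group, assigned to groups by their labels. Titles give each group 3 replicates although the series description mentions 2, and each n = 3 and SD follows the titles. Every library came from wild type plants of a Rosa hybrid cultivar. The labels name flower bud as tissue, while the title of the series is about budburst. The plants were grown in a greenhouse and a climate chamber. The sucrose group received 100 mM saccharose (sucrose) and no NAA, and the auxin group received 10 mM saccharose with 1 µM NAA. Of the intermediate groups, one had neither NAA nor the higher dose (10 mM sucrose alone) and the other had both (100 mM sucrose with NAA at 1 µM). Every group was thus given sucrose, and none was left without sugar. Harvests in June, August and October gave 1 library per group each, so libraries of the same number could be paired by date. How many plants or buds went into a library is not given in the sources used here.

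Auxin made in a growing shoot tip moves down the stem and holds the buds below it at rest, which is known as apical dominance. Sugar reaching a bud favours its outgrowth, both as a source of carbon and as a signal. NAA is a synthetic auxin that is often used in place of the natural hormone because it is more stable. The series title frames auxin and sugar as antagonists, and the comparison joins the higher sugar dose without auxin to the lower sugar dose with it.

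The files pair no gene names with their IDs, so genes are given by ID and no role could be stated for any of them. For the same reason the labelled tissue could not be checked against marker genes. In libraries of whole tissue, fewer cells of a type and less RNA per cell cannot be told apart. Gene counts in the 6 libraries ran from 7369267 to 16757019. Replicate 1 of the auxin group, from June, stood apart from the other libraries. A share of 24.9% of its counts fell on its 100 most counted genes, where the other 11 libraries had 14.1% to 16.9%. The TMM scaling factor was 0.745 for this library and 0.976 to 1.10 for the rest. The planting dates in the June labels also differed between these groups, so planting date and treatment cannot be told apart in June. Some planting dates in the labels fall after the harvest date, which puts the recorded dates themselves in doubt.

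A large part of the transcriptome differed between the sucrose and the auxin group. Of 24267 genes tested, 4074 were called higher in the sucrose group (16.8%) and 4163 were called lower (17.2%), together 33.9%. A gene was called when its Benjamini-Hochberg adjusted p in edgeR's quasi-likelihood test was under 0.05. Before adjustment, 10813 genes had a p under 0.05. In the same fit, changing the sucrose dose alone called 1.98% of the tested genes without NAA and 4.14% with it, and changing NAA alone called 14.5% at 10 mM sucrose and 1.13% at 100 mM. A fit that blocked on harvest date gave 5094 higher calls (21.0%) and 5022 lower calls (20.7%), and 8214 of the 8237 calls were kept there with their sign. The smallest adjusted p was 3.53e-05 without the block and 6.07e-06 with it.

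With TMM scaling, calls were about as many in each direction, while the largest changes were more often falls. The median log2 fold change was 1.06 over the genes called higher and -1.10 over the genes called lower, against -0.02 over all tested genes. A change of at least 2-fold was seen in 2214 of the genes called higher and 2357 of the genes called lower. At least 4-fold, these numbers were 550 and 726. At least 16-fold they were 66 and 121. The genes with large falls were therefore more numerous than those with large rises at each of these steps. The balance of calls depended on the scaling, since library totals alone gave 4103 higher and 3069 lower.

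**Figure D1:**
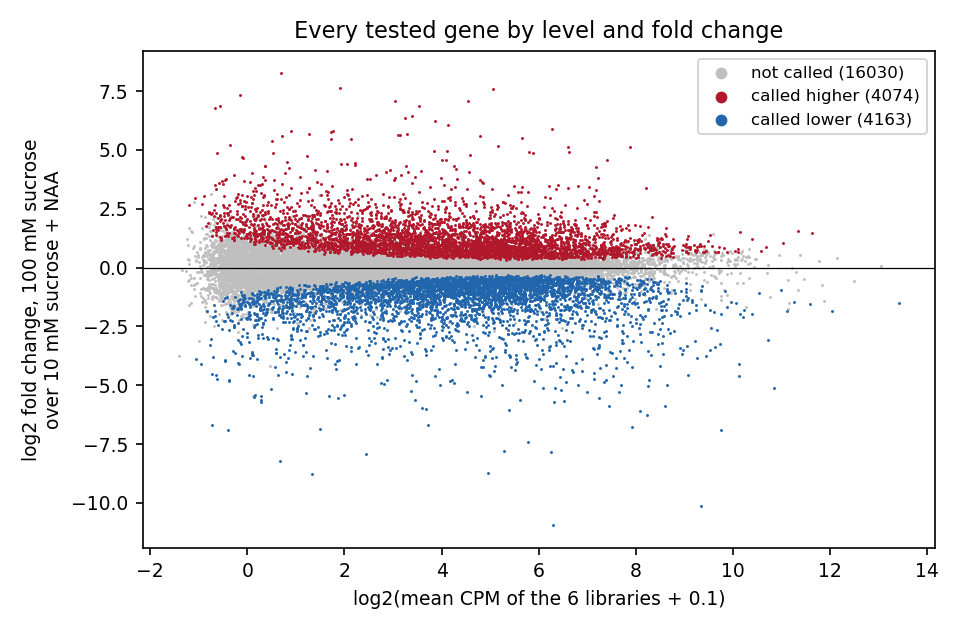
Log2 fold change of the sucrose group over the auxin group (vertical axis) against log2 of the mean CPM of the 6 libraries plus 0.1 (horizontal axis), with 1 point for each of 24267 tested genes. Called genes lie on both sides of 0 at all levels, 4074 above and 4163 below, and the falls reach further from 0 than the rises among the more highly counted genes.

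The direction of the called genes was mostly shared by all dates, which their calling on these same libraries favours. The log2 difference between the sucrose and the auxin library had the same sign in June, August and October in 4041 of the 4074 genes called higher and in 4116 of the 4163 called lower, against 59.8% of all tested genes. The 3 libraries of one group lay wholly above or below the 3 of the other in 3993 of the genes called higher and 4028 of those called lower. Over all tested genes the groups did not overlap in 46.1%, with 23.2% higher and 22.9% lower. Over the called genes, the median log2 difference was largest in August and smallest in October. It was 1.03, 1.32 and 0.82 in June, August and October for genes called higher, and -1.04, -1.17 and -0.94 for genes called lower.

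The number of calls depended most on the August libraries. Without the August libraries 2439 genes were called by edgeR, 1023 higher and 1416 lower, and 2416 of them belonged to the 8237, with unchanged sign. Without June the number was 6344 and without October 6415. Leaving out only the library that stood apart, replicate 1 of the auxin group, gave 8582 calls, and 7123 of the 8237 were among them. Leaving out June in the 2 groups compared, while keeping the June libraries of the intermediate groups, gave 7021.

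To measure the difference in libraries that had no part in choosing the genes, the 500 genes with the strongest edgeR evidence in each direction were taken from 2 dates and their levels were read in the third. The difference was present in each date left out. For genes chosen as higher, the median log2 difference was 1.37 in June, 2.46 in August and 1.48 in October. For genes chosen as lower it was -1.59, -2.12 and -1.84. Between 92.8% and 100% of the genes chosen as higher, and between 99.6% and 100% of those chosen as lower, had the chosen sign in the date left out. Over all tested genes, 49.3% to 50.7% had either sign on any date. The lowest of these shares, 92.8%, came from June, the date of the library that stood apart.

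The same left-out dates placed both intermediate groups between the ends. For genes chosen as higher, buds on 10 mM sucrose alone lay above the auxin group by a median log2 difference of 0.82 in June, 1.54 in August and 1.12 in October. Buds on 100 mM sucrose with NAA lay above it by 0.38, 1.42 and 1.09. Both intermediate groups thus stood well above the auxin group in August and October, and the group with NAA lay closest to it in June. For genes chosen as lower, the differences from the auxin group were -0.74, -0.99 and -1.11 for 10 mM sucrose alone and -0.50, -1.23 and -1.14 for 100 mM sucrose with NAA. Between 62.2% and 94.4% of the genes chosen as higher, and between 83.8% and 92.2% of those chosen as lower, had both intermediate libraries of that date strictly between the 2 ends. A wide gap between the ends favours this order. The share over all tested genes is not given here, so how far the order is particular to these genes was not tested.

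**Figure D2:**
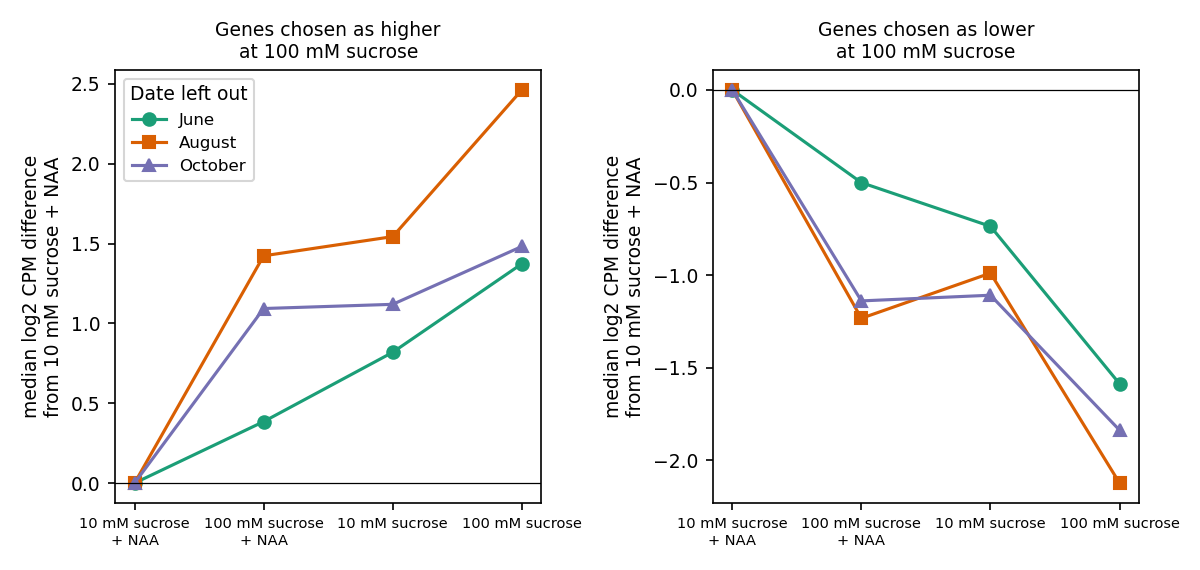
Median log2 CPM difference from 10 mM sucrose with NAA (vertical axis) in the 4 groups, for about 500 genes chosen in each direction on the other dates, with 1 line per date left out. The 100 mM sucrose group is farthest from 0 on every date, at 1.37 to 2.46 in the left panel and -2.12 to -1.59 in the right panel, and the intermediate groups lie between the ends.

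Each end can be reached from the other through either intermediate group, and the sizes of the steps depended on the route. For genes chosen as higher, in the left-out dates, the sucrose group exceeded 10 mM sucrose alone by a median log2 difference of 0.42 in June, 0.77 in August and 0.34 in October. On each date this was less than the difference of 0.82, 1.54 and 1.12 between 10 mM sucrose alone and the auxin group. Through 100 mM sucrose with NAA, the sucrose dose gave 0.38, 1.42 and 1.09 and the absence of NAA gave 1.01, 0.98 and 0.39, so that the sucrose step was the larger in August and October. For genes chosen as lower, the steps through 10 mM sucrose alone were -0.83 and -0.74 in June, -1.12 and -0.99 in August, and -0.73 and -1.11 in October, for the sucrose dose and for the absence of NAA respectively. Through 100 mM sucrose with NAA they were -0.50 and -1.07, -1.23 and -0.87, and -1.14 and -0.71. Neither factor gave the larger step on both routes and all dates in either list. These comparisons share libraries with each other, and no test was made between them.

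Over the called genes themselves, whose choice used the end groups, both intermediate groups had median positions between the ends. On a scale where the auxin group is 0 and the sucrose group is 1, the median position of 10 mM sucrose alone was 0.735 for genes called higher and 0.598 for genes called lower. That of 100 mM sucrose with NAA was 0.548 and 0.517. The position of 10 mM sucrose alone hardly varied with date, at 0.740, 0.721 and 0.744 in June, August and October for genes called higher and at 0.591, 0.573 and 0.598 for genes called lower. The position of 100 mM sucrose with NAA went from 0.406 in June through 0.588 in August to 0.701 in October for the same genes, and from 0.366 through 0.582 to 0.597 for genes called lower. For genes called higher, 10 mM sucrose alone was thus nearer to the sucrose group on each date. For genes called lower it was so in June, while in August and October the positions differed by little. The June scale has its lower end in the library that stood apart, and the part of that library in the June positions was not tested.

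The median NAA difference at the higher sucrose dose was set against that at the lower dose, and the sign of the gap was not the same on all dates. The interaction is the log2 difference without and with NAA at 100 mM sucrose minus that at 10 mM. In the left-out dates its median over genes chosen as higher was 0.18 in June, -0.56 in August and -0.78 in October. Over genes chosen as lower it was -0.41, 0.08 and 0.38, against -0.07 to 0.00 over all tested genes. June thus had the opposite sign to October in both lists. Across all dates, edgeR called 0 of 24267 tested genes for the interaction, and 834 of the 24267 had an unadjusted p under 0.05. Blocking on date also gave 0 calls, and 1683 genes then had an unadjusted p under 0.05. DESeq2 called 8 of the 24267 genes with the block and 1 without it, gene:RC7G0563600, which was singled out after its values were seen. For that gene the edgeR adjusted p without the block was 0.963, which was also the smallest edgeR adjusted p over all tested genes in that fit.

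Whether the genes that set the ends apart also set the intermediate groups apart was read from other libraries of the same harvest dates. Both contrasts came from the same fit, with a shared filter, scaling and estimate of spread, so their calls are not independent. The part of this sharing in the overlap was not tested. The contrast of 100 mM sucrose with NAA against 10 mM sucrose alone raises both factors at once. In edgeR it called 25 genes (0.103%), 20 of them higher with both factors raised (0.0824%) and the rest lower (0.0206%), with 1904 genes at an unadjusted p under 0.05. With the harvest date as a block it called 225 (0.927%), of which 150 were higher (0.618%) and 75 lower (0.309%). Of the 25 genes, 11 were also called between the ends (44.0% of the 25, and 0.134% of the 8237), against 33.9% of all tested genes. Of these 11, 8 differed in the same direction in both contrasts. In the blocked fit 151 of 225 were (67.1%, and 1.49% of 10116), against 41.7% of all tested genes. The 151 genes were 76 that differed in the same direction and 75 that differed in opposite directions. The former were thus higher, or lower, at 100 mM sucrose than at 10 mM in both contrasts, and the latter without NAA than with it.

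Calls were more frequent among well counted genes. Of genes with a mean under 1 CPM (gene counts brought to equal library size, with TMM factors) over the 6 libraries, 13.2% were called. The share was 26.0% from 1 to 10 CPM, 42.7% from 10 to 100 CPM and 47.4% at 100 CPM and over. CPM takes no account of gene length, so these classes order genes by counts and not by transcripts. The direction of the calls shifted along the same scale. Under 1 CPM 164 genes were called higher and 114 lower, and from 10 to 100 CPM 2061 were called higher and 2353 lower.

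Among the most counted genes, large falls outnumbered large rises. At 100 CPM and over, 136 genes were called lower by at least 4-fold and 23 were called higher by as much. From 10 to 100 CPM the numbers were 298 and 178, from 1 to 10 CPM 236 and 265, and under 1 CPM 56 and 84. The median log2 fold change of the genes called at 100 CPM and over was 0.83 for the higher and -1.24 for the lower. The 100 most counted genes of the sucrose group and those of the auxin group had 57 genes in common. Of the 143 genes in either list, 22 were called higher (15.4%, against 16.8% of all tested genes) and 38 lower (26.6%, against 17.2%). Among genes at 100 CPM and over, a nearer match in level, 23.1% were called higher and 24.3% lower. The list of the sucrose group held 22 genes called higher and 7 called lower, and that of the auxin group 5 and 38. Entry to a list rests on the level in that same group, and so partly on the difference counted. The shares in the lists are therefore not read as a result.

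**Figure D3:**
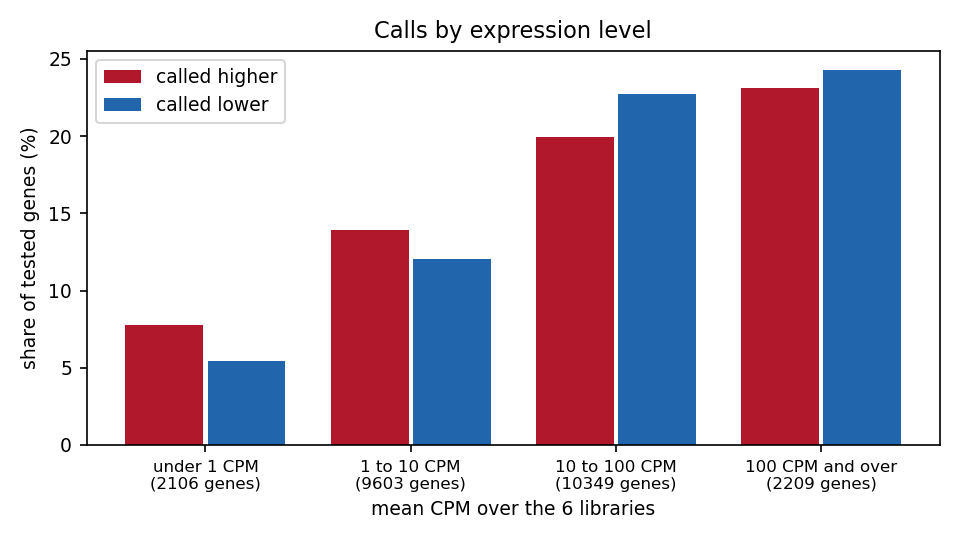
Share of tested genes called higher or lower in the sucrose group (vertical axis, percent) in 4 classes of mean CPM over the 6 libraries (horizontal axis). The shares rise from 7.79% and 5.41% under 1 CPM to 23.1% and 24.3% at 100 CPM and over, and lower calls outnumber higher calls in the top 2 classes.

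The called genes took up a large and shifting part of each library. Genes called lower held 13.8%, 13.8% and 13.0% of gene counts in the June, August and October libraries of the sucrose group, and 31.6%, 38.8% and 29.5% in those of the auxin group. The groups did not overlap, which the choice of the genes fixes. The means were 13.5% ± 0.465 and 33.3% ± 4.84 (SD, n = 3). Genes called higher held 27.9%, 28.6% and 26.99% in the sucrose group and 11.3%, 11.7% and 16.4% in the auxin group. Their means were 27.8% ± 0.797 and 13.1% ± 2.87 (SD, n = 3), so the share of the auxin group was less even over dates than that of the sucrose group.

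The intermediate groups held shares between these, an order that choosing the genes on the end groups favours. The share of genes called lower was 20.0% ± 1.77 at 10 mM sucrose alone and 21.9% ± 3.70 at 100 mM sucrose with NAA (SD, n = 3). For genes called higher the shares were 23.1% ± 1.41 and 21.2% ± 3.24 (SD, n = 3). By date, the share of genes called higher was 22.6% and 18.2% in June, 22.0% and 20.7% in August, and 24.71% and 24.65% in October, and so was higher at 10 mM sucrose alone on each date. The share of genes called lower was 19.8% and 25.5% in June, 21.9% and 22.1% in August, and 18.3% and 18.1% in October, with no common direction. The 726 genes that were lower by at least 4-fold took 1.15% ± 0.0592 of counts in the sucrose group and 8.99% ± 2.71 in the auxin group (SD, n = 3). The 550 genes that were higher by at least 4-fold took 1.81% ± 0.0651 and 0.256% ± 0.108 (SD, n = 3). The large falls thus involved several times more of the counted RNA than the large rises.

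**Figure D4:**
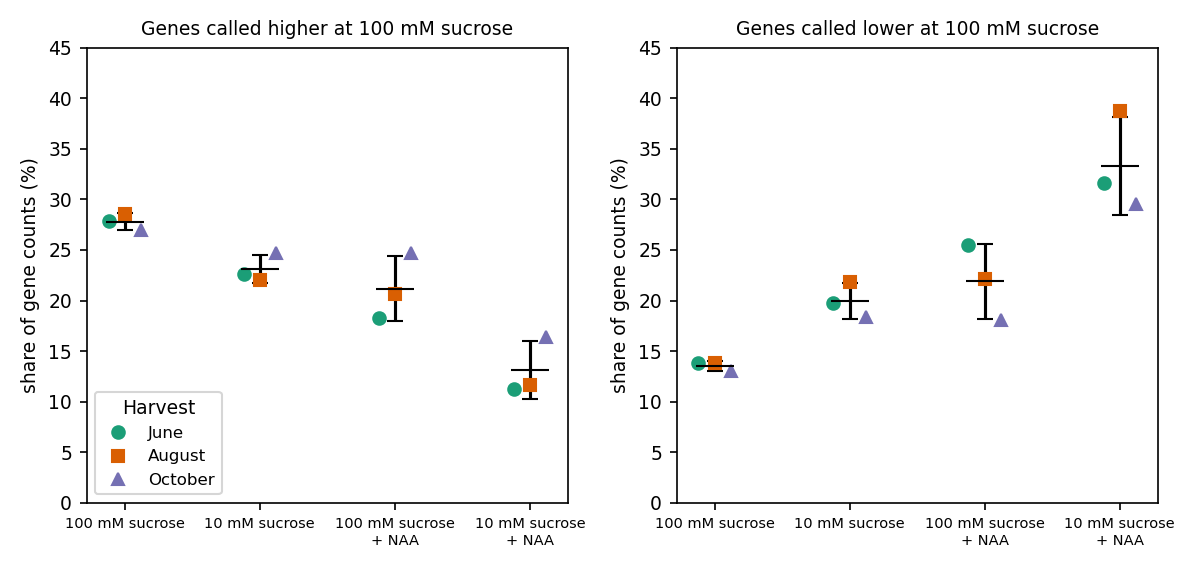
Share of gene counts (vertical axis, percent) held by the 4074 genes called higher (left) and the 4163 called lower (right) in each library of the 4 groups, with the mean and SD over 3 libraries as black bars. The end groups lie apart and the intermediate groups between them, at means of 27.8%, 23.1%, 21.2% and 13.1% on the left and 13.5%, 20.0%, 21.9% and 33.3% on the right. The genes were called on the end groups, which sets those apart and favours this order.

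Libraries of the auxin group varied more among themselves than those of the sucrose group. The median over tested genes of the SD of log2 CPM over 3 libraries was 0.344 in the auxin group and 0.217 in the sucrose group. The intermediate groups had 0.263 with NAA and 0.217 without it. Without replicate 1 of the auxin group the value of that group was 0.235, over the remaining 2 libraries. With any 1 library left out, the sucrose group had 0.155 to 0.208. The difference in spread was not tested.

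A few genes were counted in every library of one end group and in no library of the other. Of 42307 gene IDs, 83 were counted so in the sucrose group with 0 counts in the auxin group, with a median of 6 counts over the group. Another 130 were counted so in the auxin group with 0 counts in the sucrose group, with a median of 7. Mean gene counts per library were 9817950 in the sucrose group and 12767500 in the auxin group. The part of this depth in the 2 numbers was not tested. Of the 83 genes, 20 had at least 3 counts in every library of the sucrose group. Against a floor of 3 counts over the auxin group, and allowing for counting error only, they were at least 4.65-fold to at least 38.9-fold higher. All 20 had counts at 100 mM sucrose with NAA and 19 had counts at 10 mM sucrose alone. Of the 130 genes, 25 had at least 3 counts in every library of the auxin group. By the same floor over the sucrose group, they were at least 2.37-fold to at least 31.0-fold lower there. All 25 had counts at 100 mM sucrose with NAA and 24 at 10 mM sucrose alone. These genes were chosen by the same counts, which favours large folds, and the floors leave out the spread between libraries. A count of 0 at this depth limits the level and does not show absence, and only 8 of these 45 genes were counted highly enough to be tested.

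The gene gene:RC2G0143900 showed the highest fold among well counted genes that were higher in the sucrose group. It stood at 48.5, 68.9 and 80.9 CPM in June, August and October there, and at 0.912, 0.0582 and 0.409 CPM in the auxin group. The groups were far apart, and the auxin group held 12 counts in all against 1940. It rose by 7.57 on the log2 scale (SE 0.855, edgeR adjusted p = 0.000161). Leaving out replicate 2 of the auxin group gave 6.84 (SE 0.939, edgeR adjusted p = 0.000872). The level was 32.1 ± 3.08 CPM at 10 mM sucrose alone and 4.92 ± 5.36 CPM at 100 mM sucrose with NAA (SD, n = 3). Its order of levels thus put both groups without NAA above both groups with it. The step from 10 mM sucrose with NAA to 10 mM alone was 6.53 (SE 0.848, edgeR adjusted p = 0.0102) and that from 10 to 100 mM sucrose without NAA was 1.04 (SE 0.551, edgeR adjusted p = 0.487). With NAA, the step from 10 to 100 mM sucrose was 3.85 (SE 0.885, edgeR adjusted p = 0.0382), and at 100 mM the step from NAA to none was 3.72 (SE 0.621, edgeR adjusted p = 0.0239). Between the intermediate groups the difference was -2.68 (SE 0.601). Its edgeR adjusted p was 0.168 without a block and 0.0245 when harvest date was blocked.

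The gene gene:RC3G0255800 had the largest difference in CPM among those that were higher. Its level was 5270, 4570 and 4114 CPM in the 3 dates of the sucrose group and 2147, 916.0 and 2006 CPM in the auxin group. Every library of the sucrose group was thus well above the highest of the auxin group. On the log2 scale it rose by 1.46 (SE 0.349, edgeR adjusted p = 0.00745), and per date by 1.30, 2.32 and 1.04. The intermediate groups stood at 3834 ± 618.1 CPM for 10 mM sucrose alone and 2649 ± 906.0 CPM for 100 mM sucrose with NAA (SD, n = 3). Without the August libraries its change was 1.17 and was not called (SE 0.351, edgeR adjusted p = 0.0685).

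Among the genes that were lower in the sucrose group, gene:RC6G0028300 had the largest fold. It had 0, 0 and 2 counts in the 3 libraries of the sucrose group and 1832, 1446 and 742 counts in those of the auxin group, which is 334.0, 84.1 and 50.6 CPM. Its level in the auxin group was uneven, with June, the library that stood apart, about 4-fold above August in CPM. As a share of gene counts, it held 0.0249% in June and 0.00863% in August. Scaled for library size, the group sums had a ratio of 1586, and counting error alone gives this ratio an exact 95% interval from 438.7 to 13098. Fitted on the log2 scale, the change was -10.95 (SE 2.05, edgeR adjusted p = 0.00198), and -9.77 without replicate 1 of the auxin group (SE 1.97, edgeR adjusted p = 0.0035). Without replicate 3 of the sucrose group, whose 2 counts are the only ones there, it was -13.95 (SE 3.3, edgeR adjusted p = 0.0139), a fitted value that then rests on libraries at 0. It was at 24.3, 26.4 and 2.57 CPM at 10 mM sucrose alone and at 42.0, 1.61 and 2.57 CPM at 100 mM sucrose with NAA. The intermediate groups overlapped each other, and each of their libraries lay above all 3 of the sucrose group and below all 3 of the auxin group.

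The gene gene:RC3G0151500 had the largest difference in CPM among those that were lower, and it depended on the June library that stood apart. It stood at 5341, 5162 and 6654 CPM in the sucrose group and at 29522, 9263 and 9714 CPM in the auxin group. In that June library it took 2.20% of gene counts, against 0.950% and 1.00% in the other 2 libraries of the auxin group. On the log2 scale its change was -1.50 (SE 0.435, edgeR adjusted p = 0.0197). Without that library it was -0.74 (SE 0.232, edgeR adjusted p = 0.029), and without any June library -0.70 and not called (SE 0.285, edgeR adjusted p = 0.107). It was also not called without replicate 1 or 2 of the sucrose group, at -1.48 and -1.46 (edgeR adjusted p = 0.064 and 0.0709), without August or October, at -1.71 and -1.88 (edgeR adjusted p = 0.0958 and 0.0526), or from the 6 libraries alone, at -1.51 (edgeR adjusted p = 0.0985). The intermediate groups stood at 7194 ± 364.7 and 7817 ± 2036 CPM (SD, n = 3) for 10 mM sucrose alone and 100 mM sucrose with NAA, a difference within their spread.

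**Figure D5:**
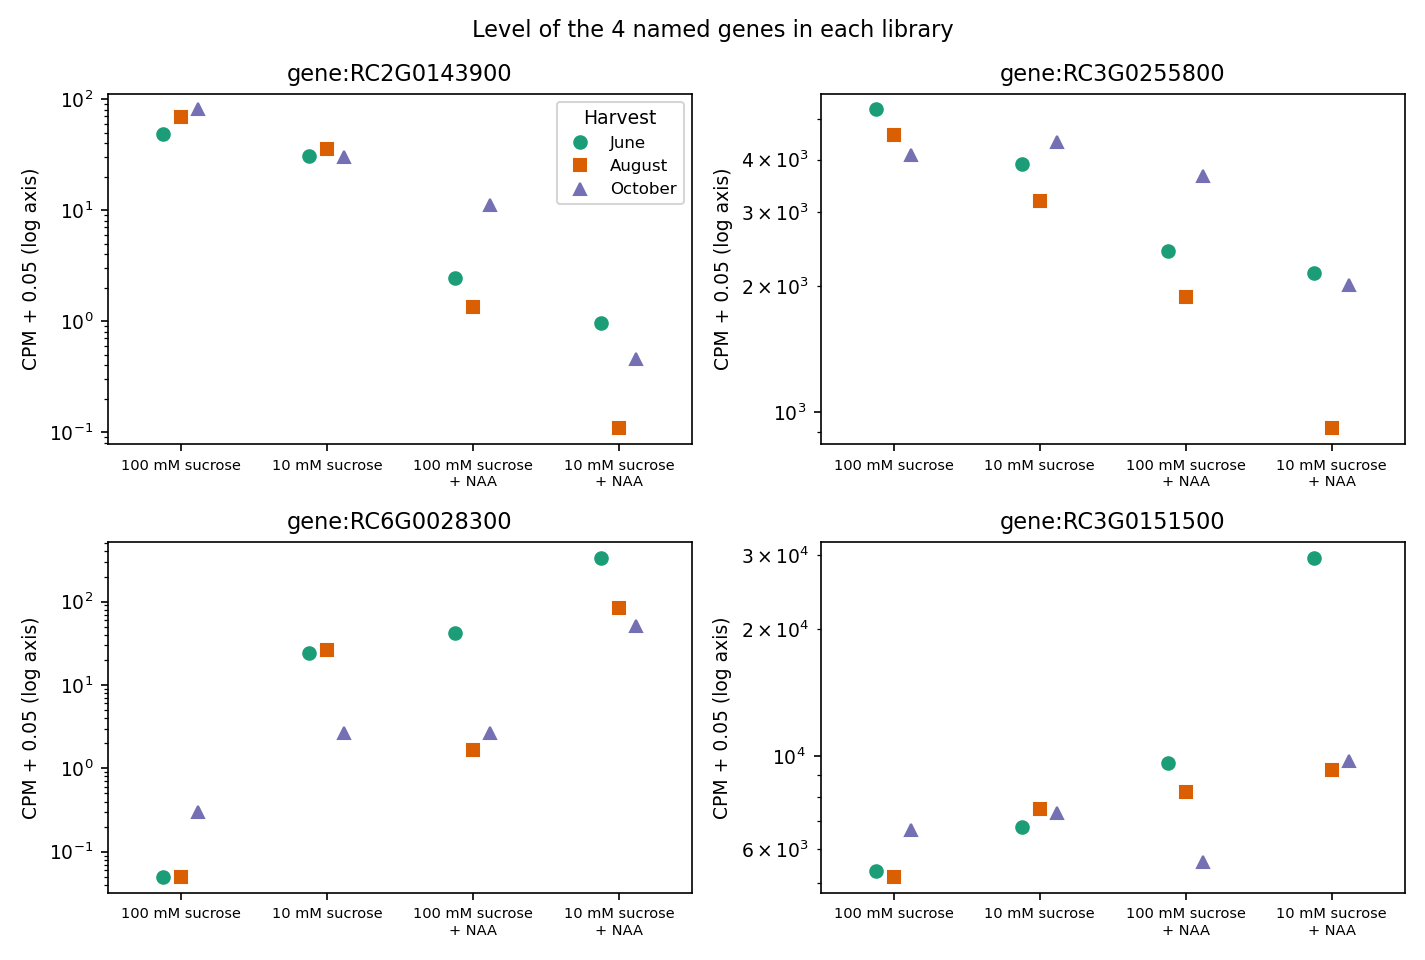
Level of the 4 named genes as CPM plus 0.05 (vertical log axis) in each library of the 4 groups, with the harvest date as colour and shape. In every panel the libraries of 100 mM sucrose and those of 10 mM sucrose with NAA do not overlap, which the choice of these genes on the same libraries favours. Over all tested genes these groups do not overlap in 46.1%. The June library of 10 mM sucrose with NAA lies far above the others for gene:RC3G0151500, at 29522 CPM.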

How the data were processed

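The authors deposited 1 file per library with raw, unnormalised whole-number counts per gene. Per the file headers, there are 3 count columns, for strand-ignored, forward and reverse counting. TopHat2 and Bowtie2 are named, per the submitters' processing notes, with no role or version. Genome build, annotation and aligner settings were not given in the sources used here. Stranded, paired-end libraries were made from polyA-selected RNA, per the labels' protocols. The reverse-strand counts were used, since forward-strand counts were 3.37% to 5.00% of both strands together. The 4 summary rows, with 17.3% to 23.2% of reads, name no gene and were left out. Reads of near-identical gene copies may be lost to multimapping (3.15% to 5.44% of reads).

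The tests used edgeR 4.0.16 under R 4.3.3, and DESeq2 1.42.0 as an alternative. filterByExpr (minimum count 10, minimum total 15) left 24267 of 42307 genes, holding 99.8% of gene counts. Another 6812 had 0 counts in all libraries and 11228 did not pass. A quasi-likelihood model with 1 mean per group and TMM scaling was fitted to all 12 libraries and tested on simulated data first. The simulated data took their spread from the blocked fit and changed few genes. They held no date effect and no library that stood apart, so the model was not tried under those conditions. P-values were adjusted over all tested genes, with 0.05 as the threshold. Log2 CPM values used a prior count of 2. Each SE beside an edgeR value is the absolute log2 fold change divided by the square root of the test's F statistic. P-values of fits without the block measure the spread between libraries of different harvest dates. Those of fits with the block measure the spread left after group and date. Intervals and floors cover counting error only. Libraries of one group differed by more than counting noise (chi-square per degree of freedom 6.70 to 101.1).

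Same-numbered libraries share a harvest date per the labels. Deviations from group means correlated at 0.0723 to 0.236 over the 3 same-date pairs of the groups compared, and at -0.213 to 0.0408 over the 6 pairs of different dates. Named genes were those with the largest fold and the largest CPM difference in each direction, among called genes with a mean of at least 10 CPM and the same sign on 3 dates (2561 higher and 2859 lower). Libraries were assigned to groups by their labels. Which groups to compare, the naming rule and the lists were chosen with earlier results of these data known. Settings tried were another scaling, no low-count filter, the replicate block, DESeq2, the libraries of both groups alone, strand-ignored counts, each library or date left out, other prior counts and other list sizes. Library totals alone, and June left out of both groups compared, were added after the data were seen.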

Additional observations from a re-analysis of the deposited data

How the results depend on the processing

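The count of 8237 genes was 5948 to 8582 with any 1 of the 12 libraries left out (2703 to 4353 higher, 3142 to 4245 lower). Without replicate 2 of 10 mM sucrose with NAA the count of higher genes was 2703. Without August the count was 2439 (1023 higher and 1416 lower), against 6344 without June and 6415 without October. The cause was not tested. The other settings gave 6210 to 10116, with 10116 for the replicate block, 8709 for DESeq2, 9957 for DESeq2 with the block, 6210 from the 6 libraries alone and 7611 with no low-count filter. Library totals alone gave 7172, with 57.2% of the calls higher in place of 49.5%, and a median log2 change over all genes of 0.06.

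The 8 genes called in the same direction between the intermediate groups were 17 with no low-count filter, 76 with the replicate block and 1 to 19 with a library left out. The position of 10 mM sucrose alone for genes called higher was 0.722 with DESeq2 size factors and 0.696 to 0.792 with a library left out. For genes called lower it was 0.585 with no low-count filter and 0.542 to 0.649 with a library left out. That of 100 mM sucrose with NAA was 0.462 to 0.661 and 0.408 to 0.577. The cause was not tested.

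With 100 genes per direction, the median log2 change in June, August and October was 2.02, 3.38 and 2.14 for genes chosen as higher and -2.02, -2.56 and -2.28 for genes chosen as lower. With 1000 it was -1.84 in August and -1.55 in October for the latter. Longer lists take genes with weaker evidence.

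Genes called with the replicate block, a longer list, held 33.0%, 27.9%, 25.5% and 16.2% of counts when higher, at 100 mM sucrose, 10 mM sucrose, 100 mM with NAA and 10 mM with NAA. When lower they held 16.1% and 23.1% at 100 mM and 10 mM sucrose. With strand-ignored counts the higher genes held 26.99% at 100 mM sucrose. The median SD with a library left out was 0.235 to 0.323 at 10 mM sucrose with NAA, 0.150 to 0.201 at 10 mM, 0.196 to 0.242 at 100 mM with NAA and 0.155 to 0.208 at 100 mM. Among named genes, gene:RC3G0151500 was not called by DESeq2 with the replicate block (-1.36, adjusted p = 0.0914) nor from the 6 libraries with the block (-1.29, edgeR adjusted p = 0.189). The block changed no other call of a named gene between the end groups. No named gene changed sign under any of these settings. Of genes under 1 CPM 13.2% were called, and the part of depth in this was not tested.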
